A study of Mus musculus with 42 samples.

Results

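The 9 genes described here move glucose across the cell membrane, store it as glycogen, break it down or make it anew. They were chosen by name in the deposited count table, which holds 48709 genes, with earlier results of these data known. They are Slc2a4, Slc2a2, Pck1, G6pc, Fbp1, Pygl, Gys2, Pfkl and Pklr. Expression was measured in 42 libraries of aorta, liver and ear skin from K14-Rac1V12 mice, in which an active form of the GTPase Rac1 is driven by the keratin 14 promoter of basal keratinocytes; every group carries this transgene. All mice first spent 2 weeks on omega-3-deficient food (OD) and, at 14 weeks of age, were randomised to remain on it or to receive eicosapentaenoic acid (EPA) or docosahexaenoic acid (DHA) for 12 weeks, at 3 g per kg of diet (the label of the DHA dose names EPA and is read here as DHA). Each tissue has 4 OD, 5 EPA and 5 DHA libraries, taken as separate mice because the labels assign 5 mice to a diet; the labels name neither sex nor batch.

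Blood glucose is held steady by uptake into muscle and fat and by release from liver. Slc2a4 encodes GLUT4, the transporter that insulin brings to the surface of adipocytes and striated muscle, and Slc2a2 encodes GLUT2, the transporter of hepatocytes and pancreatic beta cells. Gys2 is the liver isoform of glycogen synthase and Pygl the liver isoform of glycogen phosphorylase, so they build and break down the same store. Pfkl, the liver-type phosphofructokinase, and Pklr, the pyruvate kinase of liver and red cells, drive glycolysis. Pck1, Fbp1 and G6pc catalyse some of the irreversible steps of gluconeogenesis, and G6pc releases free glucose. Pck1 also serves glycerol synthesis in adipocytes.

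Values are CPM (counts scaled to a fixed library total), adjusted by TMM (trimmed mean of M values) over all 42 libraries. The counting kit reads the ends of transcripts, so a CPM is compared here only within a gene. Library totals ran from 179795 to 717508 counts in aorta, from 343824 to 768532 in liver and from 40157 to 220488 in skin, and 3 counts correspond to 3.77 to 17.3 CPM in aorta, 6.83 to 13.5 in liver and 10.6 to 42.3 in skin. In each tissue 3 of 14 libraries had Xist, the transcript of the silenced X chromosome, above 200 CPM (2 on EPA, 1 on DHA and 0 on OD). Summed over 4 markers of the Y chromosome, these libraries reached at most 9.333 CPM and the OD libraries 122.6 to 242.8 CPM. DHA library 3, low in Xist, had 17.04 CPM of them in aorta, 17.61 in skin and 75.75 in liver. By both markers females were thus present on EPA and DHA but not on OD, so sex and diet were not balanced. The tissue labels were checked by summed markers: 10 hepatocyte genes summed to 215400 to 290900 CPM in liver and to at most 1496 in aorta and 3091 in skin, 8 smooth muscle genes to 8346 to 15480 in aorta and at most 338.1 elsewhere, and 9 keratinocyte genes to 19280 to 33840 in skin and at most 195 elsewhere. The aortas also held 14 of 15 brown adipocyte markers and 11 of 12 white adipocyte markers in every library, although perivascular fat had been removed according to the labels. The brown markers summed to 2099 to 8782 CPM in aorta, 1451 to 2341 in liver and 133.7 to 495 in skin, so the sums of aorta and liver overlapped. Single markers differed more. Of 14 tested between aorta and liver by edgeR, 11 were higher and 2 lower in aorta at an adjusted p under 0.05. Of all genes 35.6% were higher and 30.5% lower. The brown adipocyte marker Ucp1 had 419.7 to 2381 CPM in aorta and at most 10.21 in liver. The white markers summed to 3627 to 10140 CPM in aorta, 125.8 to 256.6 in liver and 131.2 to 1233 in skin.

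The genes lie apart from each other on GRCm38 (GENCODE M21). Slc2a4 (ENSMUSG00000018566) is at chr11:69942539-69948188 on the minus strand and G6pc (ENSMUSG00000078650) at chr11:101367561-101377903 on the plus strand. Slc2a2 (ENSMUSG00000027690) is at chr3:28697903-28731359 and Pklr (ENSMUSG00000041237) at chr3:89136142-89146784, both on the plus strand, and Pck1 (ENSMUSG00000027513) at chr2:173153048-173159273 on the plus strand. The remaining genes are on the minus strand: Fbp1 (ENSMUSG00000069805) at chr13:62864753-62888282, Pygl (ENSMUSG00000021069) at chr12:70190811-70231488, Gys2 (ENSMUSG00000030244) at chr6:142422613-142473109 and Pfkl (ENSMUSG00000020277) at chr10:77986947-78010083.

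RefSeq (GRCm38.p6) gave a promoter entry for 7 of the 9 genes, and Slc2a4 and Gys2 were not among them. The 250 bases before the start are shown for Pck1, Pygl and Pfkl, which rose together in the aorta on DHA. They are also shown for G6pc and Pklr, genes that were at liver level in the liver alone. For Pklr the downstream start is shown, which is known as the one used in liver, and the upstream start is that of red cells. The counts are per gene and do not tell these starts apart. Capitals mark 3 motifs, each searched on both strands. The letters CGTCA are a core of the cyclic AMP response element. The GC box is GGGCGG. The TATA box is TATAAA.
Pck1, chr2:173152823-173153072, plus strand: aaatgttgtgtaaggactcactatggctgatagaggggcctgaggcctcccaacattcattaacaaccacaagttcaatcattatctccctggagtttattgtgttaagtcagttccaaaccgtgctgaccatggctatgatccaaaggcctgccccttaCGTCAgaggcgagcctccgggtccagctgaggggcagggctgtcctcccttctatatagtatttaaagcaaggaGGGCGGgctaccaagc
Pygl, chr12:70227684-70227933, minus strand: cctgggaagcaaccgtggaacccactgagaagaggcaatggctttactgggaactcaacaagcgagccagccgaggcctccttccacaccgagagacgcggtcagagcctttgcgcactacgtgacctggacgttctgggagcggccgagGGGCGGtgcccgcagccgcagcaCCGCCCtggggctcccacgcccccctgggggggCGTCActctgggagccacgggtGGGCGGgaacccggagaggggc
Pfkl, chr10:78009808-78010057, minus strand: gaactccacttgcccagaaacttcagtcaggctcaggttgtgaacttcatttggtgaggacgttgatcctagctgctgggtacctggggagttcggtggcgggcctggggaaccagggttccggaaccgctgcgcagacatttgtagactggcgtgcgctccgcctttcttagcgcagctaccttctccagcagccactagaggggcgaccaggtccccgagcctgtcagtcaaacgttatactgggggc
G6pc, chr11:101367466-101367715, plus strand: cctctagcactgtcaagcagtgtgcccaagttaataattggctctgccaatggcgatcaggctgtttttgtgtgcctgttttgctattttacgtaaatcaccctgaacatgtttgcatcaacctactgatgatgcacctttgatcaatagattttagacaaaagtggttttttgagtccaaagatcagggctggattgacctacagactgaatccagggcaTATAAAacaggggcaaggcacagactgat
Pklr downstream start, chr3:89136373-89136622, plus strand: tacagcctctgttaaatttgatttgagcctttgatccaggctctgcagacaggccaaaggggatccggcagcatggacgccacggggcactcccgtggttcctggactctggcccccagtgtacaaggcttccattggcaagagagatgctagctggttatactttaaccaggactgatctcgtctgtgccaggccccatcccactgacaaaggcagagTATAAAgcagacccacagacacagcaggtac
Counted back from the start, Pck1 held the cyclic AMP core at -90 and a GC box at -16, and Pygl held the core at -44 and GC boxes at -100, -77 and -22. A TATA box stood at -29 in G6pc and at -31 at the downstream start of Pklr. The Pfkl window held none of these letters, so the promoters of Pck1, Pygl and Pfkl did not have a searched motif in common. Slc2a4 and Gys2, which also rose on DHA, had no promoter entry to search. Of 32851 mouse promoter windows of the same length, 17.8% held the cyclic AMP core, 32.7% the GC box and 12.4% the TATA box. The full cyclic AMP element TGACGTCA, which contains the core, was in none of the members' windows and in 1.55% of all. The E-box CACGTG was likewise in none of theirs and in 6.02% of all.

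The tissues divided the 9 genes sharply. In liver Slc2a2 averaged 533 ± 103 CPM (SD, n = 14 libraries), G6pc 344 ± 238, Fbp1 1365 ± 273 and Pklr 122 ± 67, and in the aorta these same genes stood at 2.59, 1.72, 4.69 and 0.969 CPM. Every liver library lay above every aorta and skin library for each of these genes. All 9 genes passed the test between aorta and liver, 2 higher and 7 lower in aorta (edgeR's quasi-likelihood test, adjusted p under 0.05). Of all 9912 genes tested, 66.1% passed, 35.6% higher and 30.5% lower in aorta.

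**Figure D1:**
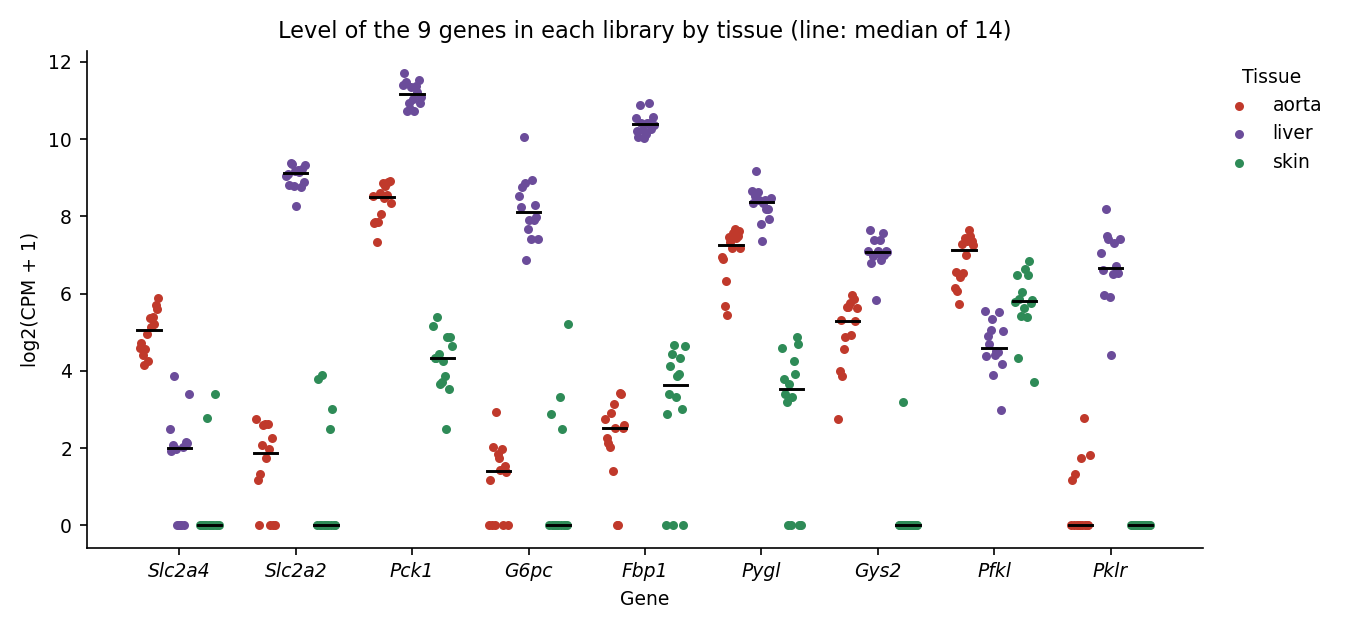
Level of each gene in each of the 42 libraries, as log2(CPM + 1) on the vertical axis, by gene on the horizontal axis and by tissue in colour, with lines at the medians of 14 libraries. Slc2a2, G6pc, Fbp1 and Pklr form a liver level far above the other tissues, Slc2a4 stands highest in aorta, and Pfkl is the gene with counts in every library of each tissue whose lowest level is in liver.

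Another 3 genes were shared by liver and aorta. Pck1 averaged 2343 ± 525 CPM in liver, 342 ± 105 in aorta (14.6% of liver) and 20.5 ± 10.1 in skin, in that order with every step past the test. Pygl averaged 331 ± 96.2 CPM in liver, 141 ± 52.4 in aorta (42.6% of liver) and 11.4 ± 9.61 in skin, and its liver and aorta libraries overlapped (162.7 to 571.5 against 42.3 to 203). Gys2 averaged 138 ± 35.7 CPM in liver and 36.5 ± 17.6 in aorta (26.4% of liver), and had 1 count in all skin libraries together. Each of these was lower in aorta than in liver, Pck1 with a difference of -2.85 ± 0.14 (log2 ± SE) and an adjusted p of 1.25e-24 by edgeR's quasi-likelihood test.

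Slc2a4 and Pfkl had the reverse order. Slc2a4 averaged 33.2 ± 13.2 CPM in aorta, with 4 to 30 counts in each library, against 3.33 ± 3.95 CPM in liver (17 counts in all, 5 libraries at 0) and 2 counts in all skin libraries. It was higher in aorta than in either other tissue, while liver and skin did not differ past the threshold (adjusted p = 0.12, edgeR's quasi-likelihood test). Pfkl averaged 126 ± 48.5 CPM in aorta, 59.9 ± 29.1 in skin and 26.4 ± 11.5 in liver, and each neighbouring pair in that order passed the test: aorta was above skin by 0.93 ± 0.19 and skin above liver by 1.18 ± 0.23 (log2 ± SE). Pfkl was thus the member with the name of a liver isoform and its lowest level in liver.

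In skin the test against liver was passed by 8 of the 9 genes, with Pfkl higher and 7 lower; 71.2% of all genes passed it, 37.4% higher and 33.9% lower. Against skin the aorta was higher for Slc2a4, Pck1, Pygl, Gys2 and Pfkl and lower for Fbp1, 6 of 9, with 62.8% of all genes passing, 33.9% higher and 28.9% lower. The lower level of Fbp1 in aorta (-1.15, adjusted p = 0.0174) did not pass without the libraries high in Xist (-0.73, adjusted p = 0.21, edgeR's quasi-likelihood test) or without skin OD 4. Scaled by total counts the median of all genes was 0.81 between aorta and liver, 1.31 between skin and liver and -0.42 between aorta and skin, against 0.12, 0.13 and 0.05 with TMM; 6093 genes were then higher and 1651 lower in aorta than in liver, 6555 and 1622 in skin than in liver, and 2317 and 4301 in aorta than in skin. The called members kept their direction under this scaling. Pklr had 0 counts in all 14 skin libraries, where a count of 0 allows a level of up to 10.6 to 42.3 CPM in a library. Whether fewer cells of a type or less RNA per cell set a level cannot be told apart in these bulk samples.

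Albumin (Alb), a secreted protein of hepatocytes, gave 69 to 204 counts per aorta library and 44 to 99 per skin library, and its mean level there was 0.367% and 0.70% of that in liver. Multiplying each gene's liver counts by the ratio of summed albumin counts gives a count to set beside the observed one. In the aorta Slc2a2 had 16 counts (95% Poisson interval 9.15 to 26, counting error alone) beside 12.5 at albumin's ratio, and Fbp1 29 (19.4 to 41.6) beside 31.9. G6pc had 13 (6.92 to 22.2) beside 8.51, and Pklr 6 (2.2 to 13.1) beside 2.96. For these 4 genes the aorta counts thus lay within counting error of the albumin ratio. Pck1 had 2242 beside 53.9, Pygl 943 beside 7.89, Gys2 242 beside 3.17, Pfkl 832 beside 0.614 and Slc2a4 221 beside 0.0863, all far above it.

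**Figure D2:**
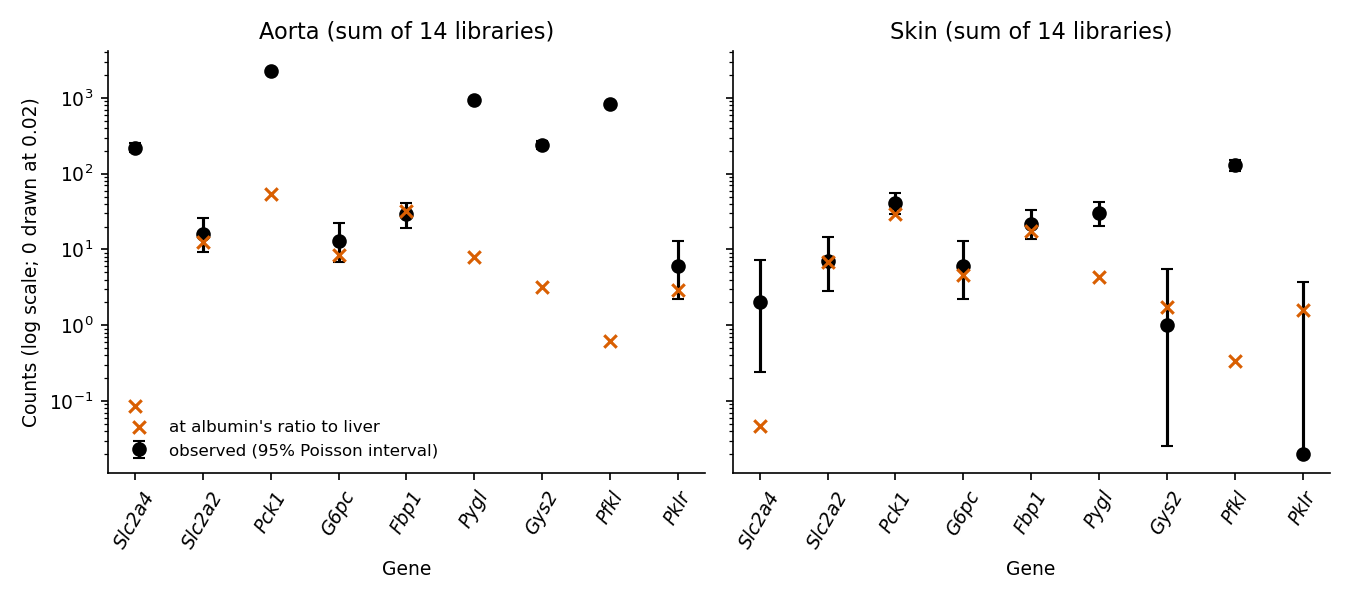
Summed counts of each gene over the 14 aorta libraries (left) and the 14 skin libraries (right), on a log axis, with 95% Poisson intervals (black), beside the counts that albumin's ratio to liver would give (orange crosses). In aorta the crosses for Slc2a2, G6pc, Fbp1 and Pklr fall inside the intervals and those for the other 5 genes fall below them.

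In skin the same 4 genes and Gys2 lay within the interval: Slc2a2 had 7 counts beside 6.75, G6pc 6 beside 4.61, Fbp1 22 beside 17.3, Gys2 1 beside 1.72 and Pklr 0 beside 1.6. Pck1 was just outside, with 41 counts (29.4 to 55.6) beside 29.2. Pygl had 30 counts beside 4.28 and Pfkl 129 beside 0.333, both above the ratio. Slc2a4 was also outside, with 2 counts (0.242 to 7.22) beside 0.0468. How albumin and the liver genes came into these libraries was not tested.

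The next comparisons ask how each fatty acid diet changed the genes within a tissue. In the aorta 5 members had enough counts to be tested (Slc2a4, Pck1, Pygl, Gys2 and Pfkl), and all 5 were higher on DHA than on OD. Of all 6538 genes 4.88% passed, 4.28% higher and 0.597% lower (280 and 39 genes). Scaled by total counts instead, 79 genes were higher and 126 lower, all genes had a median of -0.25, and 2 members passed, Slc2a4 at 0.93 and Pfkl at 1.04. The members' median change was 1.14 on the log2 scale, against -0.05 for all genes. The other 4 members had 6 to 29 counts over the 14 aortas and were not tested. Slc2a4, Pygl and Pfkl did not overlap between the DHA and OD aortas, as did 7.77% of all genes in either direction. Without the aortas high in Xist, which were on EPA and DHA, 273 of 7097 genes passed for DHA against OD. Without DHA aorta 1 alone, the DHA aorta high in Xist, 3 members passed.

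The transporter Slc2a4 stood at 23.1, 25.1, 20.2 and 16.7 CPM in the OD aortas, at 22.8, 30.1, 18.2, 39.9 and 34.2 on EPA, and at 41.3, 35.7, 51.1, 47.7 and 58.6 on DHA. All DHA aortas were above all OD aortas, and the EPA aortas spread from the OD range into the DHA range. The means were 21.3 ± 3.65 CPM on OD (SD, n = 4), 29.0 ± 8.72 on EPA and 46.9 ± 8.82 on DHA (n = 5 each). The change on DHA was 1.14 ± 0.25 (log2 ± SE, a 2.21-fold rise) with an adjusted p of 0.0101 by edgeR's quasi-likelihood test, and it rested on 4 to 20 counts in each OD aorta and 11 to 30 in each DHA aorta.

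For the phosphofructokinase Pfkl the OD aortas stood at 69.3, 92.9, 65.5 and 51.7 CPM, the EPA aortas at 84.5, 153.6, 90.8, 171 and 126.5, and the DHA aortas at 162, 198, 178, 164 and 153. The DHA libraries were all above the OD libraries, and of the EPA libraries 2 lay inside the OD range, 2 inside the DHA range and 1 between them. Pfkl rose by 1.25 ± 0.21 on DHA, with the smallest adjusted p of the members (0.00239, edgeR's quasi-likelihood test), from a mean of 69.9 ± 17.1 to 171 ± 17.6 CPM.

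**Figure D3:**
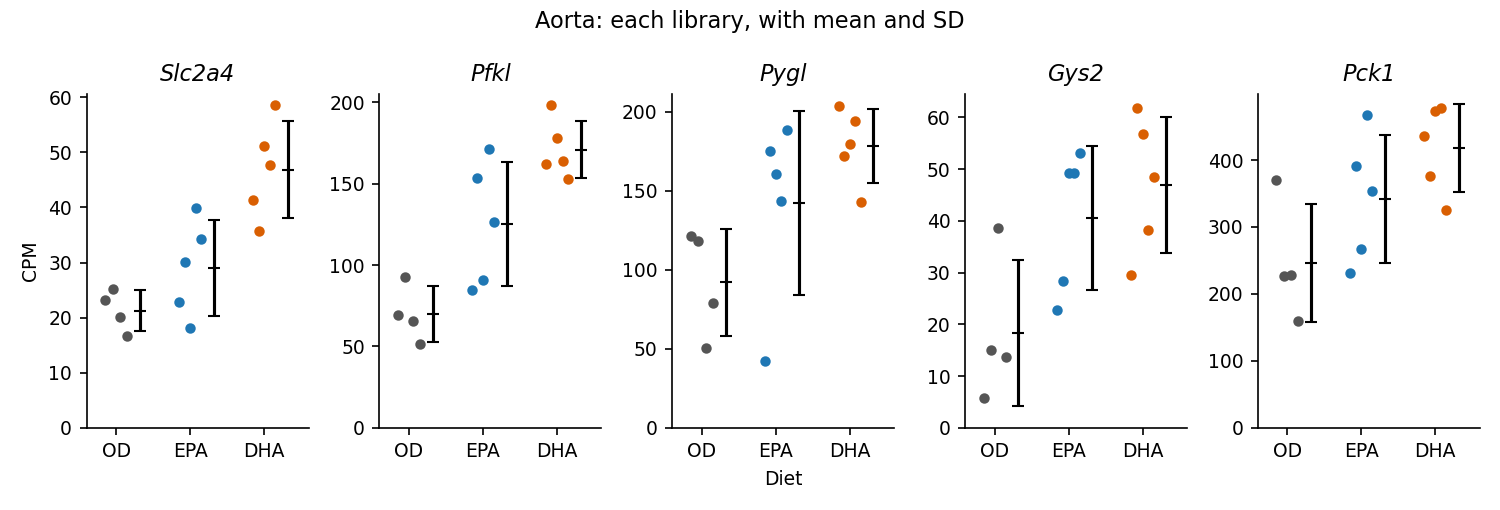
CPM of the 5 members tested in aorta, by diet on the horizontal axis, with each library as a point and the mean with its SD beside the points (OD n = 4, EPA and DHA n = 5). For Slc2a4, Pfkl and Pygl every DHA point is above every OD point, and for each gene the mean on EPA lies between the means on OD and DHA.

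Both enzymes of glycogen turnover were higher on DHA. Pygl had 121, 118, 50.4 and 79.1 CPM in the OD aortas, 42.3, 175, 161, 143 and 188 on EPA, and 203, 172, 179.8, 194 and 143 on DHA. The lowest EPA aorta fell below every OD aorta and the other EPA aortas above them. Gys2 had 5.78 (a single count), 15.1, 38.7 and 13.7 CPM on OD, 22.8, 28.4, 49.3, 49.3 and 53 on EPA, and 29.5, 61.7, 56.8, 38.2 and 48.4 on DHA, so that OD aorta 3 reached into both other groups. On DHA Pygl rose by 0.98 ± 0.28 (adjusted p = 0.0402) and Gys2 by 1.18 ± 0.34 (adjusted p = 0.0482, edgeR's quasi-likelihood test).

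Pck1, the gluconeogenic and glyceroneogenic member, had 369.8, 227, 229 and 159.7 CPM in the OD aortas, 231, 391, 267, 467 and 354 on EPA, and 436, 377, 473, 477 and 326 on DHA. OD aorta 1 stood within the DHA range and the other OD aortas below it. The rise on DHA was 0.81 ± 0.21 (adjusted p = 0.0286, edgeR's quasi-likelihood test), from a mean of 246 ± 88.4 to 418 ± 65.3 CPM.

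Against OD, EPA changed 0 of the 5 members past the threshold, beside 0.275% of all genes. With no adjustment 4 of the 5 had p under 0.05, as did 822 of the 6538 genes. All 5 values were positive, with a median of 0.70 against -0.02 for all genes. The largest was Gys2 at 1.00 ± 0.35 (adjusted p = 0.166) and the next Pfkl at 0.83 ± 0.21 (adjusted p = 0.0628). Pygl stood at 0.70 ± 0.28, Pck1 at 0.53 ± 0.21 and Slc2a4 at 0.47 ± 0.27 (adjusted p = 0.492, edgeR's quasi-likelihood test). The EPA and DHA comparisons share the 4 OD aortas. None of the 5 genes was without overlap between EPA and OD, against 3.23% of all genes.

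EPA and DHA were also set against each other at the same stated dose; DHA has the longer chain and more double bonds. None of the 6538 genes passed, so 0% were called, and 226 had an unadjusted p under 0.05 (0 by DESeq2 after adjustment, 117 before it). All 5 members had negative values, and 0 of them were without overlap (0.658% of all genes were). Slc2a4 differed by -0.67 (95% interval -1.11 to -0.23, unadjusted p = 0.00706, adjusted p = 1 after rounding) and Pfkl by -0.42 (-0.77 to -0.06), in edgeR's quasi-likelihood test. The intervals were -0.66 to 0.10 for Pck1, -0.77 to 0.19 for Pygl and -0.75 to 0.39 for Gys2, and so hold differences in either direction.

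**Figure D4:**
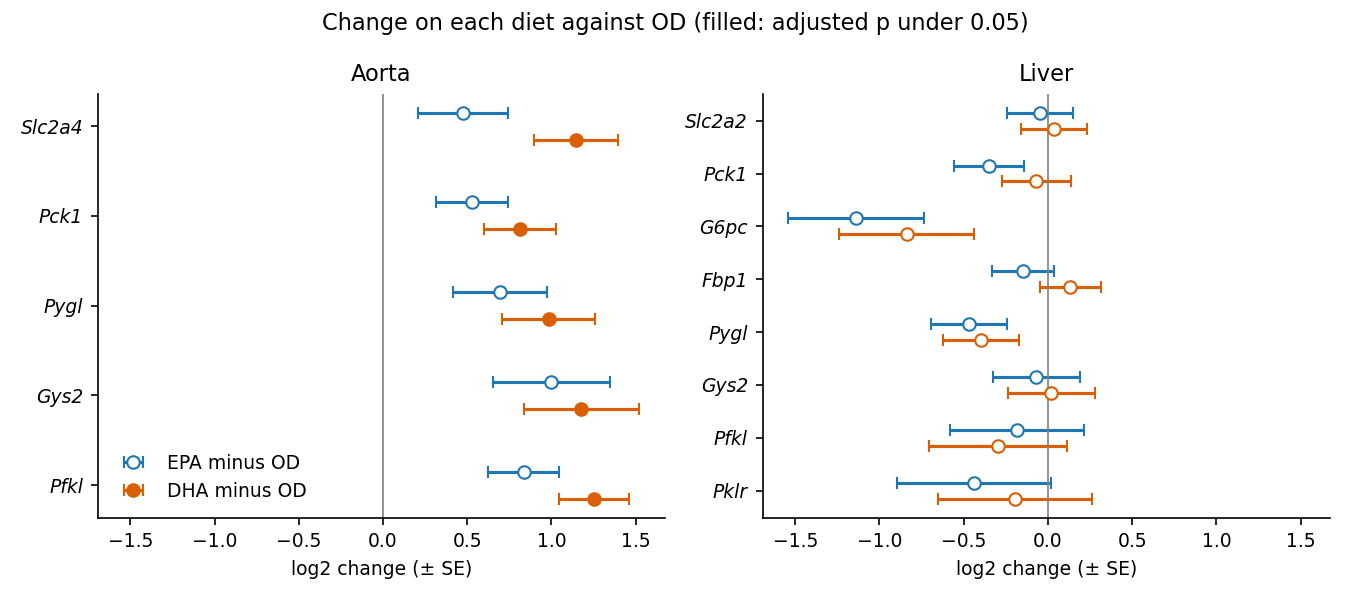
Log2 change against OD (point) with its SE (bar) for the members tested in aorta (left) and in liver (right), for EPA in blue and DHA in orange; filled points have an adjusted p under 0.05. The 5 DHA values in aorta are the filled points, and in liver the largest values, those of G6pc, are below 0 on both diets.

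Other genes of these pathways, from lists also chosen with earlier results of these data known, were read in the same aorta test. Of 14 tested glycolysis enzymes outside the 9 genes, 8 rose on DHA and 0 fell, with a median of 0.68: the enolase Eno1 by 1.06 ± 0.21, the lactate dehydrogenase subunit Ldha by 0.83 ± 0.17, the glucose phosphate isomerase Gpi1 by 0.63 ± 0.15 and the aldolase Aldoa by 0.88 ± 0.21 (adjusted p of 0.00575, 0.00826, 0.0145 and 0.0154 by edgeR's quasi-likelihood test). Hexokinase 2 (Hk2), which traps glucose in muscle and fat cells, rose by 0.94 ± 0.19 (adjusted p = 0.00777), and Hk1 was at 0.01 ± 0.33. Slc2a1, the transporter of basal glucose uptake, was the other transporter with enough counts and stood at -0.29 ± 0.36.

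Of 10 tested gluconeogenesis enzymes, 3 rose and 0 fell. These were Gpd1, the glycerol phosphate dehydrogenase that links glycolysis to glycerolipids, by 1.32 ± 0.25, and the malate dehydrogenases Mdh1 and Mdh2 by 0.64 ± 0.18 and 0.61 ± 0.18; none of these is specific to glucose synthesis. Scaled by total counts, 4 glycolysis enzymes rose and 0 fell, and of the gluconeogenesis enzymes 1 rose and 1 fell. When single aortas were dropped, omitting OD aorta 4 left 1 glycolysis enzyme past the test, omitting OD aorta 3 left 3 and any other 8 to 10, and the rise of Hk2 did not pass without OD aorta 4. For gluconeogenesis 1 enzyme passed without OD aorta 1, 3 or 4, DHA aorta 2, 3, 4 or 5, or EPA aorta 3. Of 15 tested glycogen genes the phosphoglucomutase Pgm2 rose by 0.85 ± 0.23 and 0 fell, with a median of 0.32; 0 of this list passed without OD aorta 3 or 4 or DHA aorta 1, 2, 3 or 5, and 2 without OD aorta 1. Of 24 regulators of insulin and glucose response, 0 passed by edgeR's quasi-likelihood test, and their median was 0.10. On EPA 0 genes of these lists passed, and the values nearest to passing were those of Hk2 (0.83 ± 0.19, adjusted p = 0.0619), Gpd1 (1.04 ± 0.25, 0.0628), Pcx, the pyruvate carboxylase (0.77 ± 0.20, 0.0659), and Eno1 (0.79 ± 0.20, 0.0659).

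Adipocyte markers moved with these aorta results. The summed level of 15 brown adipocyte markers was 4830, 4579, 3796 and 2099 CPM in the OD aortas, 4355, 6869, 6446, 7118 and 8037 on EPA and 8132, 8782, 7903, 7600 and 7740 on DHA. The DHA and OD aortas did not overlap. OD aorta 4 was the lowest OD aorta for these markers as for Slc2a4, Pck1 and Pfkl. For Pygl the lowest was OD aorta 3 (50.4 CPM) and for Gys2 OD aorta 1 (5.78 CPM). EPA aorta 1 was the lowest of its diet for the markers as for Pck1, Pygl, Gys2 and Pfkl. For Slc2a4 the lowest was EPA aorta 3 (18.2 CPM). Whether adipocyte content set the levels of the members was not tested. On DHA 8 of 14 tested brown markers rose, among them the uncoupling protein Ucp1 by 1.25 ± 0.26, and 0 fell. Of 11 tested white adipocyte markers 4 rose, or 0 scaled by total counts, and 0 fell (sums of 3627 to 6094 CPM on OD, 4060 to 10140 on EPA and 6908 to 8252 on DHA). With 1 aorta left out, the white markers called were 0 without DHA aorta 1, 2 or 5 or OD aorta 4, 1 without OD or DHA aorta 3, and 2 without OD aorta 2, EPA aorta 2, 3 or 5, or DHA aorta 4; the brown markers called were 5 without OD aorta 4 and 6 to 9 otherwise.

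With the mean log2 CPM of the 14 tested brown adipocyte markers as a covariate 0 of the 5 members passed on DHA, and their changes were 0.49 for Slc2a4, 0.16 for Pck1, 0.41 for Pygl, 0.50 for Gys2 and 0.72 for Pfkl. In that fit 0 of all 6538 genes passed by edgeR's quasi-likelihood test, and 358 had an unadjusted p under 0.05. The summed brown markers did not overlap between the DHA and OD aortas. This fit therefore cannot tell adipocyte content and diet apart. Smooth muscle markers went the other way, with 1 of 8 lower on DHA (5 by DESeq2, 0 to 3 with 1 aorta left out) and sums of 11410 to 15480 CPM on OD, 8346 to 12840 on EPA and 8426 to 10430 on DHA. Hepatocyte markers did not separate the diets (sums of 850.7 to 1496 CPM over all aortas).

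Skeletal muscle markers were high in 3 aortas, EPA 2 (1064 CPM), DHA 3 (770.4) and DHA 5 (642), and at most 149.6 CPM in the others. Skeletal muscle also uses GLUT4. Without these 3 aortas, a choice made after seeing the data, Pfkl kept its rise on DHA (1.28, adjusted p = 0.0323) and the other members had changes of 0.85 to 1.07 that did not pass, Slc2a4 at 0.99 with an adjusted p of 0.11 by edgeR's quasi-likelihood test; of all genes 29 passed, among them 0 of the 14 glycolysis enzymes, 0 white and 1 of 14 brown adipocyte markers. Leaving out each aorta in turn left 1 to 5 members called, with 1 left without OD aorta 4, 2 without DHA aorta 3 or 4, and 3 without OD aorta 2 or 3, DHA aorta 1 or 2, or EPA aorta 3. Pfkl passed in all 14 of these fits and Slc2a4 in 13, Pck1 in 8, Pygl in 7 and Gys2 in 5. OD aorta 4 also had the highest sum of 5 red cell markers, 141600 CPM. The sums were 5442 to 35790 CPM in the other OD aortas, 11640 to 127300 on EPA and 3333 to 85910 on DHA. Whether red cell content bears on these calls was not tested.

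The members' levels were also set against each other across the 14 aortas. Slc2a4 and Pfkl had a Pearson r of 0.87 on log2(CPM + 2) (permutation p = 0.00011) and a Spearman rho of 0.81 (p = 0.00083), with adjusted p of 0.00355 and 0.0158 over 38 member pairs in both tissues. Within diets r was 0.65, and without the 2 aortas farthest from the median of Slc2a4 it was 0.87. Pck1 and Pfkl had an r of 0.84 (permutation p = 0.00028) and a rho of 0.82 (p = 0.00048), 0.68 within diets and 0.77 without the 2 farthest. Gys2 stood apart: its r with the other members was 0.36 to 0.67, and within diets -0.17 to 0.16. In all 6 of 10 aorta pairs passed an adjusted p of 0.05 on r by permutation, and 5 on rho. The permutations ran across diets, so a shift that 2 members share on a diet counts toward these p-values. Within diets the 6 pairs had an r of 0.16 (Gys2 and Pfkl) to 0.68 (Pck1 and Pfkl), which was not tested.

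The genes most like a member over the aortas, by Pearson r across 14 libraries of log2 CPM scaled within the tissue, are given for each member. These genes were picked as the highest of the genes tested, so their r is raised by the choice and was not tested. For Pfkl they were Uqcrc2 (r = 0.94), a subunit of respiratory complex III, and Hadha (0.94), of mitochondrial fatty acid oxidation. For Pck1 they were Uqcrb (0.94), also of complex III, the fatty acid transporter Cd36 (0.93) and the mitochondrial chaperone Hspa9 (0.92). For Pygl they were Timm8b (0.94), Immt (0.94) and Mrpl12 (0.93), which serve import, membrane shape and translation in mitochondria. For Gys2 they were Grcc10 (0.91), Mrpl30 (0.89) and Ndufa13 (0.87), and for Slc2a4 they were Pfkl itself (0.86), Rnaset2a (0.85) and Acsl5 (0.85).

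In liver 8 members were tested, all but Slc2a4, and 0 passed in any of the 3 diet comparisons by edgeR's quasi-likelihood test; 0% of the 5018 genes passed. Unadjusted p under 0.05 were found for 309 genes with DHA against OD, 336 with EPA against OD and 184 with EPA against DHA. Among the members this held for G6pc with EPA against OD. DESeq2 called 2 genes with DHA and 4 with EPA against OD, and 0 members. Against OD all 8 members had negative values on EPA and 5 of 8 on DHA. None of the 8 was without overlap between diets, against 2.49% of genes with DHA and OD, 2.05% with EPA and OD and 0.757% with EPA and DHA.

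The glucose-releasing enzyme G6pc stood farthest from 0. Its level was 365, 302, 436 and 1068 CPM in the OD livers, 462, 115, 202, 237 and 169.8 on EPA, and 488, 239, 309.9, 252 and 168 on DHA. OD liver 4 was far above the rest, and 1 EPA liver and 2 DHA livers lay within the OD range. The value against OD was -1.14 ± 0.40 on EPA (unadjusted p = 0.0119, adjusted p = 0.613) and -0.84 ± 0.40 on DHA (adjusted p = 0.814, edgeR's quasi-likelihood test). Without OD liver 4 or any other single liver the values ran from -1.54 to -0.58 on EPA and from -1.11 to -0.28 on DHA. With no filter on low counts G6pc passed on EPA (-1.19), as did 131 of all 18238 genes, and on DHA (-0.90), as did 112.

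**Figure D5:**
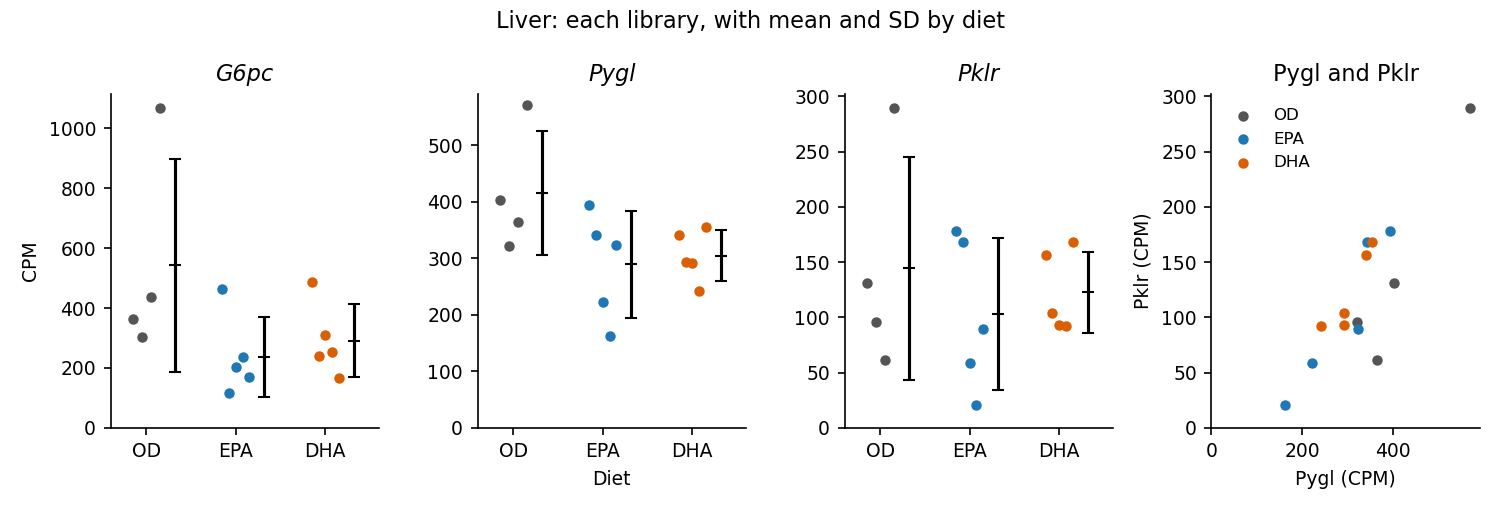
CPM of G6pc, Pygl and Pklr in each liver library by diet, with the mean and SD beside the points (OD n = 4, EPA and DHA n = 5), and at right Pklr plotted against Pygl in the 14 livers. OD liver 4 is the highest point in each panel, and the 14 points of the right panel rise together.

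Glycogen phosphorylase and pyruvate kinase were also highest in OD liver 4. Pygl had 404, 322, 365 and 571.5 CPM on OD, 395, 342, 223, 163 and 324 on EPA, and 341, 293, 293, 242 and 355 on DHA. Its value was -0.47 ± 0.22 on EPA and -0.40 ± 0.23 on DHA, and the groups overlapped. Pklr had 131, 96.0, 61.3 and 289 CPM on OD, 178, 168, 59.1, 20.3 and 89.5 on EPA, and 156.5, 104, 93, 91.9 and 168 on DHA, which gave -0.44 ± 0.46 and -0.19 ± 0.46.

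The remaining liver members had values closer to 0. Pck1 had 2711, 3329, 2852 and 1680 CPM on OD, 1948, 1740, 2608, 2088 and 1683 on EPA, and 2676, 2400, 2965, 1950 and 2170 on DHA; here OD liver 4 was the lowest of all livers, the reverse of its place for G6pc. The Pck1 value was -0.35 ± 0.21 on EPA and -0.07 ± 0.21 on DHA. Fbp1 ranged from 1058 to 1881 CPM on OD (median 1334), from 1050 to 1372 on EPA (1210) and from 1233 to 1945 on DHA (1358), with values of -0.15 ± 0.18 and 0.13 ± 0.18. Slc2a2 ranged from 445 to 669 CPM on OD, from 305 to 658 on EPA and from 433 to 643 on DHA, and its 95% intervals against OD were -0.43 to 0.34 on EPA and -0.35 to 0.42 on DHA.

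Gys2 in liver ranged from 109.7 to 200.4 CPM on OD, from 55.9 to 167 on EPA and from 117 to 189 on DHA, with intervals against OD of -0.57 to 0.43 and -0.48 to 0.52. Pfkl had 2 to 20 counts in a liver library, and its intervals of -0.96 to 0.60 on EPA and -1.10 to 0.51 on DHA would hold changes of the size seen for other members. Between EPA and DHA the values of the 8 members ran from -0.30 for G6pc (95% interval -1.07 to 0.47) to 0.11 for Pfkl.

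Across livers Pygl and Pklr had a Pearson r of 0.87 (permutation p = 0.00025) and a Spearman rho of 0.74 (p = 0.00374), with adjusted p of 0.00355 and 0.0284 over the 38 pairs. It was 0.94 within diets and 0.60 without the 2 livers farthest from the median of Pygl. Pklr was most like Gbe1, the glycogen branching enzyme (r = 0.94), Acsl5 (0.92) and the fatty acid elongase Elovl6 (0.91). Pygl was most like the same Gbe1 (0.87), the acetyl-CoA carboxylase Acaca (0.87) and Pklr. Pck1 was most like Fchsd2 (0.88), Mup9 (0.79) and Klf15 (0.77), a transcription factor of the fasting response, and G6pc like Oxsm (0.77), Slc25a25 (0.77) and Psmc4 (0.72). These genes too were picked as the highest of the genes tested. Their r is therefore raised by the choice and was not tested. Of the 28 liver pairs 4 passed an adjusted p of 0.05 on r by permutation, and 1 on rho, that of Pygl and Pklr.

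Other pathway genes in liver did not pass either. Onecut1, a hepatocyte transcription factor, had the smallest p of the regulators with DHA against OD (-1.82 ± 0.71) and the insulin receptor Insr with EPA (0.27 ± 0.13). Pcx was at 0.30 ± 0.15 on EPA and 0.29 ± 0.15 on DHA. In ear skin Pfkl was the member with enough counts to be tested, with 2133 genes tested and 0% called in each comparison by edgeR's quasi-likelihood test (46 with DHA, 89 with EPA and 46 between them at an unadjusted p under 0.05). It had 54.1, 89, 19.1 and 57.4 CPM on OD, 41.4, 64.4, 48.6, 99 and 41 on EPA, and 88.7, 114, 52.8, 56.5 and 12.1 on DHA. Its values were 0.27 ± 0.46 on DHA and 0.06 ± 0.47 on EPA, and the groups overlapped throughout.

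Whether the diet changed aorta and liver differently was tested in the fit of all 9 groups. With DHA 0 of the 9 members passed, beside 0.0202% of 9912 genes. The values of aorta minus liver were 1.44 ± 0.38 for Pygl (adjusted p = 0.214), 1.63 ± 0.48 for Pfkl (0.28), 1.23 ± 0.44 for Gys2 (0.437) and 0.92 ± 0.32 for Pck1 (0.406, edgeR's quasi-likelihood test); 750 genes had an unadjusted p under 0.05. Pygl passed with DESeq2 (1.36, adjusted p = 0.033) and with no filter on low counts (1.46, adjusted p = 0.00987). With EPA 0 of 9 passed, beside 0.0404% of genes, and 589 genes had an unadjusted p under 0.05. The largest EPA value was 3.20 ± 0.93 for Slc2a4 (adjusted p = 0.438, edgeR's quasi-likelihood test), which rested on 10 counts in the OD livers, 6 of them in OD liver 4, and 1 in the EPA livers; its DHA value was 1.75 ± 0.74. G6pc stood at 2.16 ± 1.25 on EPA, with 3 counts in the OD aortas, Pygl at 1.22 ± 0.38, Gys2 at 1.13 ± 0.45, Pfkl at 1.08 ± 0.47 and Pck1 at 0.91 ± 0.32. These fits take the libraries of different tissues as unrelated, although the labels assign 5 mice to a diet and the tissues may share mice. The libraries high in Xist were EPA 1, EPA 5 and DHA 1 in each tissue. Among the others, DHA 3 had the lowest sum of Y markers in each tissue. Whether libraries of 1 number come from 1 mouse was not tested.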

How the data were processed

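Per the labels' protocols, each library started from 10 ng of RNA and was made with a 3′ kit that tags molecules. The authors deposited whole-number counts per gene, and every test here used them. Per the submitters' processing notes the build was GRCm38.p6 and edgeR was used; aligner, counter and tag collapsing: not given in the sources used here. A deposited table of normalised values was left out.

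Diet contrasts were fitted within a tissue in edgeR (4.0.16, under R 4.3.3), on genes kept by filterByExpr, scaled by TMM, with quasi-likelihood F tests and p-values adjusted by Benjamini-Hochberg over every gene kept. Tissue and interaction contrasts used 1 fit over 9 groups that treats all libraries as unrelated. An SE is the log2 change over √F. Alike genes used log2 CPM (prior count 2) scaled within a tissue. Member pairs used log2(CPM + 2) scaled over all libraries, with 100000 permutations of the libraries of a tissue across diets. The steps were tested on simulated data.

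Alternatives were DESeq2 1.42.0 (test and size factors), total counts, no filter, other sets of libraries and a brown adipocyte covariate. The members and gene lists were chosen with earlier results of these data known. All members were named; of other lists, up to 4 called genes with the smallest p, or up to 2 where none was called, and the 3 genes most alike; a few genes that this rule names are not reported here. Promoters are from RefSeq.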

Additional observations from a re-analysis of the deposited data

Results flagged for a closer look

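In liver on DHA, replicate 2 had 189 CPM of Gys2 and the next highest library 136, a gap of 0.732 of the range of the 5 libraries, which is more than the critical value for a far sample. It rested on 42 counts. Of 42 gene and group combinations checked 1 stood out in this way, and chance alone gives about 1 in 20. The cause was not tested.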

How the results depend on the processing

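The number of members called in the aorta on DHA, 5, was 2 with total counts, 1 without the aortas high in skeletal muscle markers (chosen after seeing the data), 0 with the brown adipocyte covariate and 1 to 5 with 1 library left out. On EPA it was 0, and 1 with DESeq2 (Pfkl), 3 with no filter (Gys2, Pfkl, Pygl), 1 without the libraries high in Xist (Pfkl) and 0 to 2 with 1 left out. The DHA interaction went from 0 to 1 with DESeq2 and with no filter (Pygl). Liver DHA and EPA each went from 0 to 1 (G6pc) with no filter. The cause of these shifts was not tested.

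Over all genes the 319 calls of aorta DHA against OD were 205 with total counts and 408 of 21486 with no filter. The 18 of EPA against OD were 186 with DESeq2, 257 with no filter, 6 with total counts, 100 without high Xist, 0 with only the compared diets, 3 without high muscle markers and 0 with the covariate. EPA against DHA had 12 with no filter. The interactions had 69 (DHA) and 39 (EPA) with DESeq2 and 48 and 40 with no filter. Total counts moved the liver medians against OD to 0.15 on both diets.

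Values that did not pass changed sign as follows. With total counts Gys2 (0.088) and Slc2a2 (0.11) in liver on EPA and Pck1 on DHA (0.10) became positive. With no filter Gys2 (-0.034) and Slc2a2 (-0.021) in liver on DHA became negative, and without high Xist so did Fbp1 on DHA (-0.001735). Slc2a4 in aorta on EPA was -0.056 with the covariate, and Gys2 between EPA and DHA in aorta was 0.10 without high muscle markers. With 1 library left out, liver EPA values ran from -0.25 to 0.016 for Fbp1, -0.17 to 0.14 for Gys2, -0.39 to 0.10 for Pfkl, -0.74 to 0.14 for Pklr and -0.16 to 0.0903 for Slc2a2. Liver DHA values ran from -0.11 to 0.22 for Gys2, -0.24 to 0.059 for Pck1, -0.43 to 0.39 for Pklr and -0.044 to 0.14 for Slc2a2. Pfkl ran from -0.11 to 0.40 between EPA and DHA in liver and from -0.21 to 0.0725 on EPA in skin, where 8 of the 14 fits kept it. Of the 17 member values not given in the text, 12 changed sign in some setting and 0 passed in any.

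No paired analysis was possible because replicates were numbered in accession order and the labels tie no library of one group to one of another; such a number only names a library here. Depth limits the low members: 3 counts are up to 17.3 CPM in aorta and 42.3 in skin.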
